A study of Mus musculus with 12 samples.

Results

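The JAK, STAT and SOCS signalling genes described here are Jak1, Jak2, Tyk2, Stat2, Stat3, Socs1 and Socs3. They were taken as every probe set that the array's annotation gives to these symbols alone, which was 15 of 22626 probe sets and 7 of 12393 genes. Jak1, Stat3 and Socs3 had 3 probe sets each, Jak2 and Stat2 had 2 each, and Tyk2 and Socs1 had 1 each. The levels came from whole-brain lysates of adult, untreated mice held in a specific-pathogen-free facility, with 1 array (Affymetrix, 3' expression) per sample and 12 samples in all. There were 3 samples each of wild type mice (WT), mice lacking Usp18 (USP18ko), mice lacking Ifnar1 (IFNARko) and mice lacking both (USP18ko:IFNARko, the double knockout). The labels give no sex, strain, exact age or knockout strategy, and do not say whether the 3 replicates were separate animals, and the p-values below speak for the variation among these 12 samples alone, part of which may be technical. The brains held all cell types together, so more cells of a type and more RNA per cell cannot be told apart.

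In this pathway a cytokine binds its receptor, the Janus kinases (JAKs) bound to the receptor phosphorylate each other and the receptor, and STAT proteins dock there, are phosphorylated and enter the nucleus. At the type I interferon receptor the kinases are TYK2, which sits on the IFNAR1 chain, and JAK1. STAT2 joins a partner STAT and IRF9 to form ISGF3, the complex that switches on interferon-stimulated genes, and STAT3 serves mainly the receptors of the interleukin-6 family. SOCS1 and SOCS3 are induced by the same signals and bind JAKs or receptors to shut them down, and USP18 is a further brake, acting at the IFNAR2 chain. In the brain, astrocytes and microglia use both branches, and STAT3 is known for its part in astrocyte reactivity.

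The promoters of Stat2, Socs1 and Socs3 are shown because they held a motif of this pathway in the 250 bases before the RefSeq start site (GRCm38.p6), while the windows of Jak1, Jak2, Tyk2 and Stat3 held none of the letters searched. Searched on both strands were the core of the interferon-stimulated response element (ISRE, which is GAAA, any 2 bases and GAAA again) and the gamma-activated site (GAS, TTCNNNGAA, which reads the same on both strands). Of all 32536 RefSeq windows of this length, 2.98% held the first and 7.04% the second. Capitals mark the matches. Stat2 (chr10:128270248-128270497, plus strand) had an ISRE core on the opposite strand at -222 to -213, and Socs1 (chr16:10785537-10785786, minus strand) had 2 ISRE cores at -83 to -74 and -77 to -68, which overlap each other. Of Socs3 only the GAS at -154 to -146 is shown, with 10 bases on either side (chr11:117969502-117969530, minus strand). The Socs3 window (chr11:117969367-117969616) lay inside the annotated span of the gene (chr11:117966079-117970336), so the start site used was not its outermost end. A match is a description of the letters, not a shown binding site.
Stat2: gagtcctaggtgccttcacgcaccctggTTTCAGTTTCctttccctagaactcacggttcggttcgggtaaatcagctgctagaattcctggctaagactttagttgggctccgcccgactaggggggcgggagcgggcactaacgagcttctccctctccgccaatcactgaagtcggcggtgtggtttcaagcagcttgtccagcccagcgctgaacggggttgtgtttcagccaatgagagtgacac
Socs1: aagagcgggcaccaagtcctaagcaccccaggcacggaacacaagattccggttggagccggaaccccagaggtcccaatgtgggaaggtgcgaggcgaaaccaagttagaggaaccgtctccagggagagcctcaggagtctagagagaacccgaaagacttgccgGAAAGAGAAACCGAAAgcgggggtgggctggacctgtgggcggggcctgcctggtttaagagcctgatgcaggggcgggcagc
Socs3: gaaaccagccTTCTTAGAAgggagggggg

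The arrays were compared before the genes. IFNARko replicate 1 stood apart, with correlations of 0.963 to 0.974 to the other arrays against 0.983 to 0.998 among the other 11, and its 3' beta-actin probe set exceeded the 5' one by 1.48 on the log2 scale, a measure of RNA integrity, against 0.20 to 0.54. Values of IFNARko that it moved by over 1.5 times are given with and without it. Ifnar1 read 7.44 to 8.21 in the 6 arrays of WT and USP18ko and 6.24 to 6.68 in the 6 arrays labelled as lacking it. Usp18 read 4.04 to 4.36 in WT and 3.50 to 3.76 in all other arrays, IFNARko included. Whether either probe set lies in the deleted stretch was not stated, so these levels check the labels only in part. By probe set 1436936_s_at, Xist, a transcript of female cells, was at 10.17 (WT replicate 1) and at 10.34 to 11.34 (all 3 double knockout arrays), against 4.98 to 5.69 elsewhere. Eif2s3y, a gene of the Y chromosome, was at 3.05 to 3.22 in the same arrays apart from double knockout replicate 2, which at 7.16 had both transcripts, and at up to 8.94 in the rest.

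Of the 15 member probe sets, 0 passed the test between USP18ko and WT (0.977% of all probe sets did), and 1 passed between the double knockout and USP18ko (1.19% of all). That was 1421911_at of Stat2, which fell by 0.64 on the log2 scale. With all arrays, the 15 differences between USP18ko and WT were above 0, at 0.39 to 0.83 for the 6 probe sets of Stat2, Socs1 and Socs3, 0.00 to 0.44 for Stat3, and 0.20 or less for Jak1, Jak2 and Tyk2. With 1 array left out, they fell as low as -0.09 for Tyk2, -0.03 and -0.05 for Jak2, and -0.07 for Stat3 1424272_at. For Jak1 1433804_at and 1433805_at the lowest was -0.01. The rest stayed above 0 whichever array was left out. The double knockout lay below USP18ko by 0.46 to 1.05 with the 6 probe sets of Stat2, Socs1 and Socs3, and by 0.29 and 0.23 with Stat3 1426587_a_at and 1460700_at (differences of -0.29 and -0.23). With the remaining Stat3 probe set, 1424272_at, the double knockout lay above USP18ko by 0.05. In USP18ko against WT the range of Stat3 overlapped both others, while that of Stat2, Socs1 and Socs3 lay above that of the kinases. No difference between genes was tested.

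Stat2, the interferon-specific STAT, was measured by 2 probe sets. With 1421911_at the log2 signals were 5.87, 5.56 and 5.50 in WT, 5.98, 5.96 and 6.16 in USP18ko, 5.48, 5.42 and 5.43 in IFNARko, and 5.36, 5.24 and 5.57 in the double knockout. The 3 USP18ko arrays were above all 9 others, and the double knockout overlapped with both WT and IFNARko. From USP18ko to the double knockout Stat2 fell by 0.64 (SE 0.12, 95% interval -0.91 to -0.37, limma adjusted p = 0.0218), or to 0.641-fold. Without IFNARko replicate 1 the same difference had an adjusted p of 0.0135. The call was lost without USP18ko replicate 1 (-0.67, limma adjusted p = 0.0641), USP18ko replicate 2 (-0.68, 0.0584), USP18ko replicate 3 (-0.58, 0.130), double knockout replicate 1 (-0.62, 0.123) or double knockout replicate 2 (-0.57, 0.142). It was also lost when both Stat2 probe sets were averaged (-0.61, limma adjusted p = 0.115 over genes). Xist was high in all double knockout arrays and low in all USP18ko arrays, so genotype and this marker of sex cannot be told apart in that comparison.

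Between USP18ko and WT, Stat2 1421911_at differed by 0.39 (SE 0.12, 95% interval 0.13 to 0.66), which did not pass (limma adjusted p = 0.454). The order of the group means was USP18ko at 6.03 ± 0.11, WT at 5.64 ± 0.20, IFNARko at 5.44 ± 0.03 and the double knockout at 5.39 ± 0.17 (SD, n = 3 each). None of the neighbours in this order differed past the test.

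The other Stat2 probe set, 1450403_at, read 5.56, 5.62 and 5.87 in WT, 6.17, 6.06 and 6.66 in USP18ko, 4.33, 5.67 and 5.35 in IFNARko, and 5.64, 5.71 and 5.82 in the double knockout. Here too the USP18ko arrays were above the other 9, and IFNARko replicate 1 was the lowest by a wide margin. USP18ko exceeded WT by 0.62 (SE 0.28, 95% interval 0.01 to 1.22, limma adjusted p = 1.00) and the double knockout lay below USP18ko by 0.58 (-0.58, SE 0.28, 95% interval -1.18 to 0.03, limma adjusted p = 1.00). Without IFNARko replicate 1 the SE of both was 0.15 and the adjusted p-values were 0.121 and 0.137, so neither passed with or without that array. The gap between the double knockout and IFNARko was 0.60 with all arrays and 0.21 without IFNARko replicate 1. By the rule for named genes no neighbours in expression were due, since 0 member probe sets were called in USP18ko against WT. For Stat2 1421911_at, chosen after its values were seen, the probe sets with the highest Pearson r over the 12 arrays belonged to Trim21, a ubiquitin ligase (0.924), Dhx58, a sensor-family helicase (0.919), and Irf9, the DNA-binding partner in ISGF3 (0.916). These correlations are a description over arrays that share the 4 groups.

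**Figure D1:**
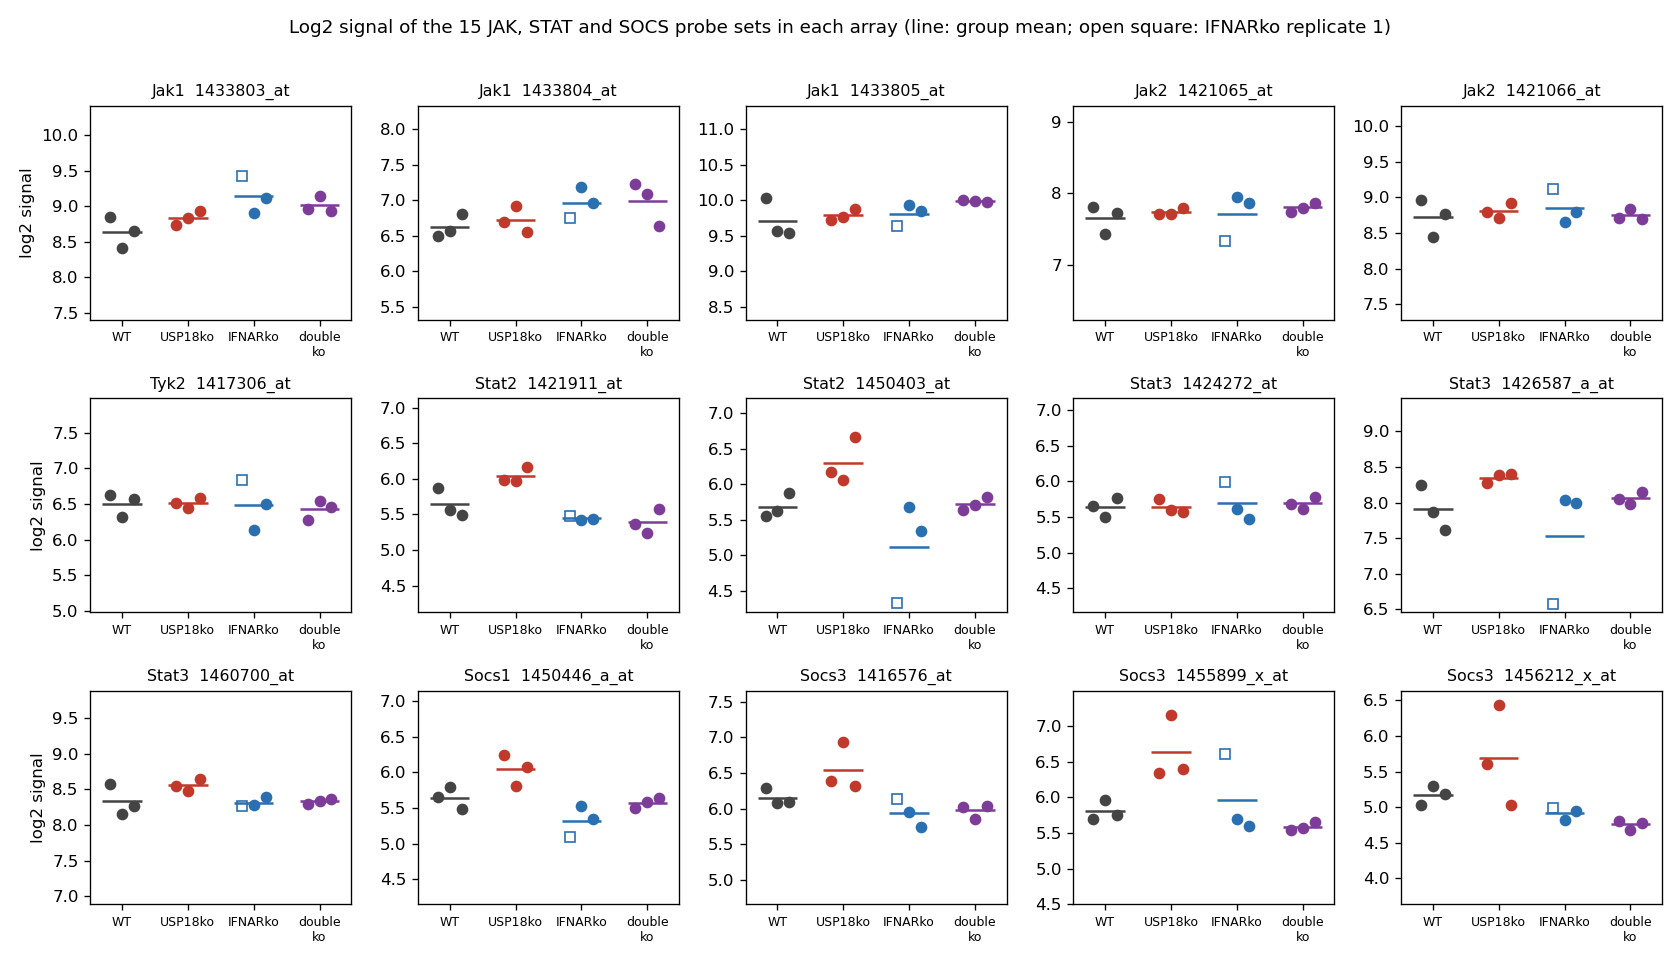
Log2 signal (vertical axis, 3 log2 units high in every panel) of each of the 15 probe sets in the 12 arrays, by genotype, with a line at each group mean; the open square is IFNARko replicate 1. In 6 panels, both Stat2 probe sets, Socs1, Socs3 1416576_at and 1455899_x_at, and Stat3 1426587_a_at, the 3 USP18ko points lie above the 3 WT points, while the Tyk2 groups overlap.

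Socs1, a feedback inhibitor that blocks the catalytic site of JAKs, was measured by 1450446_a_at. Its signals were 5.65, 5.80 and 5.48 in WT, 6.25, 5.80 and 6.07 in USP18ko, 5.10, 5.52 and 5.35 in IFNARko, and 5.50, 5.59 and 5.64 in the double knockout. The USP18ko arrays were above all others, but USP18ko replicate 2 and WT replicate 2 were the same to 2 decimals. USP18ko exceeded WT by 0.40 (SE 0.14, 95% interval 0.09 to 0.71, limma adjusted p = 0.760), and the double knockout lay below USP18ko (-0.46, SE 0.14, 95% interval -0.77 to -0.15, limma adjusted p = 0.332). IFNARko lay below WT with an overlap of the groups (-0.32, SE 0.14, 95% interval -0.63 to -0.01, limma adjusted p = 0.541), or by -0.21 without IFNARko replicate 1. None of these passed, and without IFNARko replicate 1 the first 2 had adjusted p-values of 0.300 and 0.123.

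Socs3, which binds the receptor chain gp130 and JAKs and is a classic STAT3 target, had 3 probe sets. Those ending in _x_at hold probes that can match other transcripts. With 1455899_x_at the signals were 5.70, 5.96 and 5.75 in WT, 6.34, 7.16 and 6.40 in USP18ko, 6.61, 5.69 and 5.60 in IFNARko, and 5.54, 5.57 and 5.65 in the double knockout. USP18ko and WT did not overlap, the double knockout was below WT in every array, and IFNARko replicate 1 alone lay within the USP18ko range. USP18ko exceeded WT by 0.83 (SE 0.26, 95% interval 0.26 to 1.40, limma adjusted p = 0.476), a 1.78-fold difference. The double knockout lay below USP18ko by 1.05 (-1.05, SE 0.26, 95% interval -1.62 to -0.48, limma adjusted p = 0.121). Neither passed with all arrays. Without IFNARko replicate 1 the SE of both was 0.18, the second difference passed (limma adjusted p = 0.00787) and the first did not (limma adjusted p = 0.0509). In that fit 353 probe sets were called in the double knockout against USP18ko, among them all 270 called with every array.

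The probe set 1416576_at of Socs3 read 6.29, 6.08 and 6.10 in WT, 6.39, 6.93 and 6.31 in USP18ko, 6.14, 5.96 and 5.74 in IFNARko, and 6.03, 5.85 and 6.04 in the double knockout. The third, 1456212_x_at, read 5.04, 5.29 and 5.19 in WT, 5.60, 6.44 and 5.03 in USP18ko, 4.995, 4.83 and 4.94 in IFNARko, and 4.81, 4.68 and 4.78 in the double knockout. With the first of these USP18ko lay above all other arrays, and with the second USP18ko replicate 3 was below all WT arrays. USP18ko replicate 2 was the highest array with all 3 Socs3 probe sets. Differences between USP18ko and WT were 0.39 (SE 0.16) and 0.52 (SE 0.26), both with a limma adjusted p of 1.00, and between the double knockout and USP18ko -0.57 (SE 0.16) and -0.93 (SE 0.26), with limma adjusted p-values of 0.238 and 0.218. Without USP18ko replicate 2 the 3 Socs3 differences from WT were 0.20 (1416576_at), 0.56 (1455899_x_at) and 0.14 (1456212_x_at). Without USP18ko replicate 3 the difference of 1456212_x_at between the double knockout and USP18ko was -1.26 and passed (limma adjusted p = 0.0105). The SD of the 3 Socs3 probe sets was 0.34, 0.46 and 0.71 in USP18ko and 0.11, 0.06 and 0.07 in the double knockout (n = 3 each), a contrast that was not tested.

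Stat3, the STAT of the interleukin-6 family, had 3 probe sets that did not read alike. With 1424272_at all 12 arrays lay between 5.47 and 5.99, and USP18ko differed from WT by 0.00 (SE 0.13, 95% interval -0.29 to 0.30, limma adjusted p = 1.00). With 1460700_at the signals were 8.58, 8.16 and 8.27 in WT, 8.54, 8.48 and 8.65 in USP18ko, 8.27, 8.27 and 8.39 in IFNARko, and 8.30, 8.34 and 8.37 in the double knockout. USP18ko overlapped with WT only through WT replicate 1, the WT array high in Xist. The USP18ko difference of 0.22 (SE 0.11, 95% interval -0.02 to 0.47) did not pass (limma adjusted p = 1.00). With 1426587_a_at the signals were 8.25, 7.87 and 7.61 in WT, 8.27, 8.38 and 8.40 in USP18ko, 6.57, 8.03 and 7.99 in IFNARko, and 8.06, 7.98 and 8.15 in the double knockout. USP18ko lay above all other arrays here, WT replicate 1 came close to it, and IFNARko replicate 1 was far below the rest. The difference from WT was 0.44 (SE 0.31, 95% interval -0.24 to 1.12, limma adjusted p = 1.00), with an SE of 0.13 and an adjusted p of 0.290 without IFNARko replicate 1. IFNARko differed from WT by -0.38 with that array and by 0.10 without it, so the sign of this Stat3 value rests on 1 array.

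The kinases had 6 probe sets, of which 0 passed in any comparison. Of all probe sets only 0% to 1.19% passed per comparison, so this count does not set the kinases apart. Jak2, the kinase of growth hormone and interferon-gamma receptors, read 7.34 to 7.95 (1421065_at) and 8.45 to 9.12 (1421066_at) over the 12 arrays. IFNARko replicate 1 was the lowest array with the first and the highest with the second. The groups of Jak2 overlapped in all 5 comparisons of 2 groups. Tyk2, the IFNAR1-bound kinase, read 6.63, 6.32 and 6.58 in WT, 6.52, 6.44 and 6.58 in USP18ko, 6.84, 6.14 and 6.50 in IFNARko, and 6.28, 6.55 and 6.45 in the double knockout, again with overlap throughout. USP18ko differed from WT by 0.08 (1421065_at) and 0.09 (1421066_at) for Jak2 and by 0.01 for Tyk2, and the 95% intervals of the 3 reached from -0.34 to 0.42. For Tyk2 the interval allowed levels of 0.789-fold to 1.28-fold of WT, so small changes were not detectable with 3 arrays per group.

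Jak1, the kinase shared by all interferon receptors and most interleukin receptors, was the kinase with the largest differences. Its probe set 1433803_at read 8.84, 8.42 and 8.65 in WT, 8.74, 8.83 and 8.93 in USP18ko, 9.43, 8.90 and 9.11 in IFNARko, and 8.97, 9.14 and 8.93 in the double knockout. The 6 arrays lacking Ifnar1 lay above the 3 WT arrays, and the USP18ko arrays overlapped with WT. IFNARko exceeded WT by 0.51 (SE 0.15, 95% interval 0.19 to 0.83, limma adjusted p = 0.381), or by 0.37 without IFNARko replicate 1, and the double knockout exceeded WT by 0.37 (SE 0.15, 95% interval 0.05 to 0.69, limma adjusted p = 0.996). Both comparisons share the WT arrays. The same 2 differences were 0.34 and 0.36 with 1433804_at and 0.10 and 0.28 with 1433805_at, with overlap of the groups, and none of the 6 passed. The IFNARko difference of 1433805_at was 0.18 without IFNARko replicate 1. Against WT, USP18ko differed by 0.20, 0.09 and 0.08 with the 3 Jak1 probe sets, and the highest upper bound was 0.52, or 1.43-fold.

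**Figure D2:**
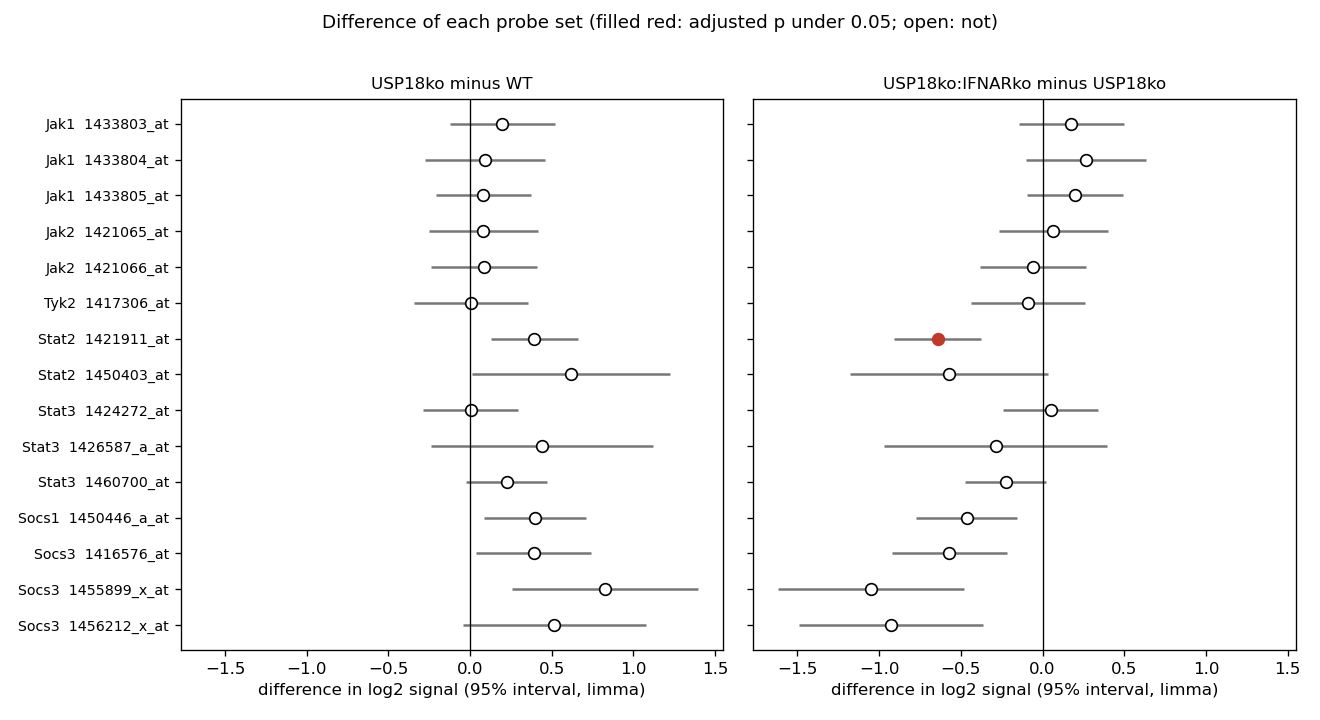
Difference in log2 signal (horizontal axis) of each of the 15 probe sets between USP18ko and WT (left) and between the double knockout and USP18ko (right), with 95% intervals from limma. The filled point, Stat2 1421911_at at -0.64 in the right panel, passed; the intervals of the 6 JAK probe sets include 0 in both panels.

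Counted over all members, 0 of 15 probe sets were called by limma in USP18ko against WT, where 0.977% of all 22626 were called, and 5 of 15 had an unadjusted p under 0.05, against 4.01% of all. The 5 belonged to Stat2 (both), Socs1 and Socs3 (1416576_at and 1455899_x_at). In 6 of 15 the USP18ko arrays lay wholly above the WT arrays, against 4.1% of all probe sets, and in 0 wholly below (5.41%). The median difference of the members was 0.22, and that of all probe sets -0.02. In the double knockout against USP18ko 1 of 15 was called lower, against 1.16% of all, and 0 higher (0.0309%). In either direction 1.19% of all probe sets were called, and 4.53% had an unadjusted p under 0.05, as did 5 members. Without overlap of the groups 8 were lower (7.12% of all) and 1 higher (9.42%), the latter being Jak1 1433805_at. The median was -0.23, against 0.01 over all. These 2 comparisons share the USP18ko arrays, so their opposite signs are not separate evidence.

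In IFNARko against WT limma called 0 of 15 member probe sets (0.0177% of all were called), with 2 at an unadjusted p under 0.05 (9.17% of all), Jak1 1433803_at and Socs1. The groups did not overlap for 1 member that was higher (5.47% of all) and 2 that were lower (5.9%), Stat2 1421911_at at -0.20 and Socs3 1456212_x_at at -0.25. In the double knockout against WT 0 of 15 were called, as were 0% of all probe sets, with 1 member at an unadjusted p under 0.05 (4.2% of all). All 3 Socs3 probe sets lay wholly below WT there, by -0.18, -0.22 and -0.41, and Jak1 1433803_at above, against 9.68% and 6.18% of all probe sets without overlap. The double knockout against IFNARko, which asks what Usp18 loss does without the receptor, had 0 of 15 called by limma (0% of all), with 0 at an unadjusted p under 0.05 (8.35% of all). Groups did not overlap for 1 member that was higher, Jak1 1433805_at (8.61% of all), and 1 that was lower, Socs3 1456212_x_at (10.9% of all). Stat2 1421911_at differed by -0.05 (95% interval -0.32 to 0.22), Socs1 by 0.25 (-0.06 to 0.56) and Socs3 1455899_x_at by -0.38 (-0.95 to 0.19). These were -0.03, 0.14 and -0.06 without IFNARko replicate 1, so most of the Socs3 value came from that array. Xist was high in all double knockout arrays and low in all IFNARko arrays, so here too genotype and this marker of sex cannot be told apart. In each comparison with WT, those of USP18ko and IFNARko included, they were mixed in part, since of the WT arrays replicate 1 alone was high in Xist.

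The interaction tests whether the effect of losing Usp18 differs with and without the receptor. It called 0 of 15 members by limma, against 0.703% of all probe sets, and 2 had an unadjusted p under 0.05, against 4.11% of all. These were Socs3 1455899_x_at (-1.21, SE 0.37, 95% interval -2.02 to -0.41, limma adjusted p = 0.506) and Stat2 1421911_at (-0.44, SE 0.17, 95% interval -0.82 to -0.07, limma adjusted p = 0.936). Without IFNARko replicate 1 they were -0.89 and -0.43, with limma adjusted p-values of 0.465 and 0.877. For Socs1 the value was -0.14 (SE 0.20), or -0.26 without that array. The other Stat2 probe set, 1450403_at, gave -0.01 (95% interval -0.87 to 0.85), or -0.40 without it. The other Socs3 probe sets gave -0.36 (1416576_at, 95% interval -0.86 to 0.14) and -0.68 (1456212_x_at, 95% interval -1.47 to 0.12). The interaction carries a difference in Xist as well, since Xist was high in all double knockout arrays and otherwise only in WT replicate 1. The part of sex in these values was not tested.

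**Figure D3:**
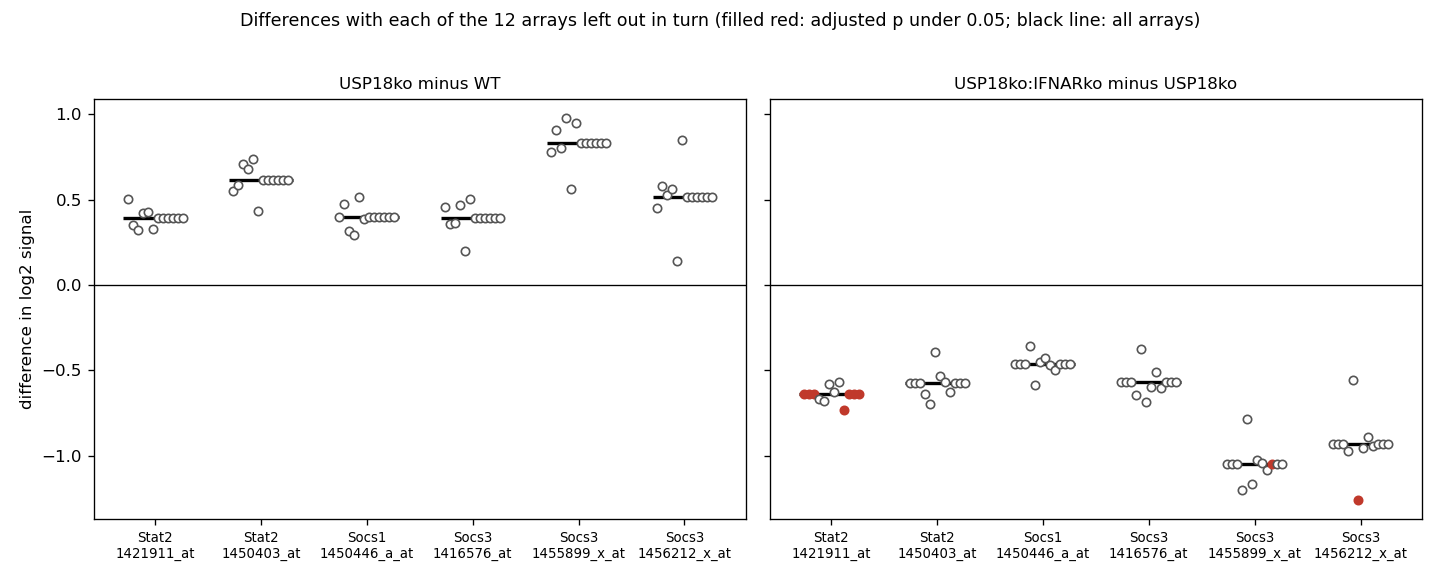
Differences in log2 signal (vertical axis) of the Stat2, Socs1 and Socs3 probe sets with each of the 12 arrays left out in turn, for USP18ko minus WT (left) and the double knockout minus USP18ko (right); black lines give the value with all arrays and filled points passed. All points on the left lie above 0 and none passed, from 0.14 for Socs3 1456212_x_at without USP18ko replicate 2 to 0.98 for Socs3 1455899_x_at; all on the right lie below 0.

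Other genes of the pathway were taken from lists. Among 9 probe sets of 6 other JAK and STAT pathway genes, 1 rose in USP18ko against WT (list median 0.12). This was Irf9, the DNA-binding part of ISGF3, which read 6.64, 6.55 and 6.59 in WT, 7.31, 7.37 and 7.74 in USP18ko, 6.56, 6.31 and 6.36 in IFNARko, and 6.24, 6.24 and 6.19 in the double knockout. The USP18ko arrays were above all others and the double knockout below all others. Irf9 rose by 0.88 (SE 0.12, limma adjusted p = 0.00172) and fell by 1.26 from USP18ko to the double knockout (SE 0.12, limma adjusted p = 7.11e-05). Its interaction was -1.07 (SE 0.17, limma adjusted p = 0.00928), and all 3 calls held without any of the 12 arrays in turn. Of the rest, Stat6, the STAT of interleukin-4, named after its values were seen, differed by 0.33 and 0.25 with its 2 probe sets and did not pass. The 12 probe sets of the other SOCS family genes (Socs2, Socs4, Socs5, Socs6, Socs7 and Cish) ranged from -0.17 to 0.11 in USP18ko against WT (median -0.02), and 0 passed there, in the double knockout against USP18ko or in the interaction.

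Of 19 probe sets for PIAS proteins and phosphatases that restrain STAT signalling, 1 rose in USP18ko (list median -0.05). It was 1460188_at of Ptpn6, which encodes the phosphatase SHP-1 of blood cells and microglia, with a difference of 1.24 (SE 0.13, limma adjusted p = 1.82e-04). It fell by 1.30 from USP18ko to the double knockout (SE 0.13, limma adjusted p = 1.02e-04), and the interaction was -1.15 (limma adjusted p = 0.00974). The other Ptpn6 probe set, 1456694_x_at, differed by 0.22 and -0.29 and did not pass. Of 28 probe sets for receptor chains that signal through JAKs 0 rose in USP18ko, or 1 without IFNARko replicate 1, and 2 fell in the double knockout against USP18ko, Ifnar1 (-1.31) and Il10ra (1448731_at, -0.74, limma adjusted p = 0.0107), or 4 without that array. The Il10ra call was lost without any 1 of the 3 double knockout arrays (-0.73, -0.73 and -0.75) and with quantile normalization (-0.70, limma adjusted p = 0.0594). The other Il10ra probe sets did not pass with all arrays. Their means in USP18ko and the double knockout were 4.34 and 3.86 (1437808_x_at) and 3.44 and 3.23 (1456173_at). All Il10ra signals were low, in a table whose lowest value was 2.36.

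Genes downstream of the STATs were set beside them. Of 19 probe sets for ISGF3 target genes, 15 rose in USP18ko (list median 2.41, against -0.02 over all probe sets), 17 fell in the double knockout against USP18ko (median -2.72) and 13 had a called interaction. Ifit3, an antiviral RNA-binding protein gene, rose by 4.19 (SE 0.13, limma adjusted p = 7.5e-09). Irf7, which encodes a transcription factor that amplifies interferon production, rose by 3.40 (SE 0.12, limma adjusted p = 1.81e-08). Of 37 probe sets for STAT3 target genes, 2 rose in USP18ko (median 0.23), or 4 without IFNARko replicate 1. These were Icam1, an adhesion molecule gene (1.34, SE 0.20, limma adjusted p = 0.00341), and Cebpb, a transcription factor gene (1418901_at, 0.75, SE 0.15, limma adjusted p = 0.0345), both also known to answer other signals. The Cebpb call was lost without any 1 of 10 of the 12 arrays (range 0.61 to 0.93). Against USP18ko the double knockout fell in 3 of 37 (median -0.17), Icam1 by 1.57, Cebpb 1418901_at by 0.85 and Serpina3n, an acute-phase protease inhibitor gene of reactive astrocytes, by 1.02 (SE 0.16, limma adjusted p = 0.00571). The call of Cebpb was lost without USP18ko replicate 2 (-0.79) or 3 (-0.87), or double knockout replicate 1 (-0.80) or 3 (-0.82). The other Cebpb probe set, 1427844_a_at, did not pass with all arrays in either of these comparisons. Gfap, the astrocyte filament gene, also named after its values were seen, differed from WT by 0.70 and 0.66 and did not pass.

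**Figure D4:**
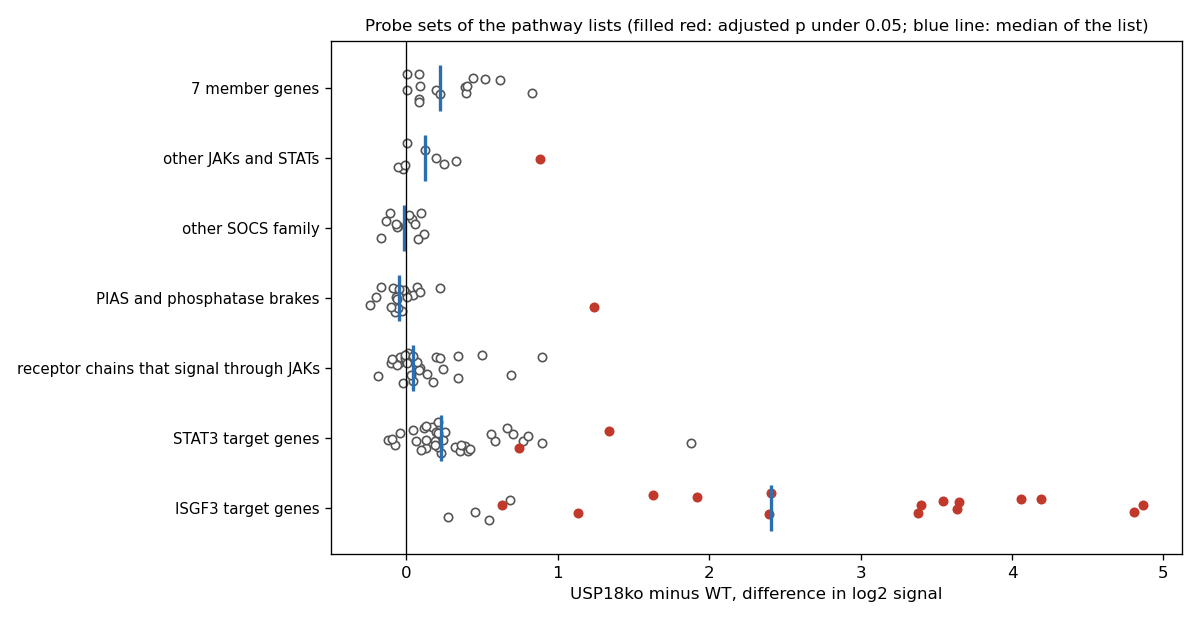
Differences in log2 signal between USP18ko and WT (horizontal axis) of the 7 members and of 6 pathway lists, 1 point per probe set, filled where called, with a blue line at the list median; vertical scatter within a list has no meaning. The members' median is 0.22 and that of the ISGF3 targets 2.41, with Irf9 at 0.88 and Ptpn6 at 1.24 the only called points of their lists.

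Some markers of cell types that could carry these transcripts were higher in USP18ko. The summed signal of 9 microglia probe sets (log2 of the sum) was 10.44 to 11.09 in WT, 11.20 to 11.91 in USP18ko, 10.65 to 10.98 in IFNARko and 10.72 to 10.79 in the double knockout. That of 7 leukocyte probe sets was 7.73 to 7.86, 9.39 to 9.86, 7.52 to 8.21 and 7.54 to 7.87. In USP18ko against WT 2 of the 9 rose, Aif1 (1.93) and Itgam (0.80), and 2 of the 7, Ptprc (2.12) and Plac8 (3.35). The median difference was 0.49 for the microglia list and 0.04 for the leukocyte list. The Itgam call was lost without WT replicate 2 (0.74) or 3 (0.77), or USP18ko replicate 2 (0.64) or 3 (0.82). P2ry12, a microglial receptor gene, differed by -0.35 with overlap of the groups and did not pass. The defining T cell markers Cd3e (0.00), Cd3g (0.03) and Cd8a (-0.12 and 0.04) did not pass. The part of these cells in the Stat2, Socs1 and Socs3 values was not tested. Of the astrocyte, neuron, oligodendrocyte, endothelial and choroid plexus markers, with 10, 7, 13, 6 and 8 probe sets, 0 passed in USP18ko against WT by limma. WT replicate 2 stood apart in some of them. The myelin genes Mobp (1421010_at) and Mog read 9.47 and 7.32 there, against 5.38 and 3.11 in WT replicate 1 and 4.35 and 3.36 in WT replicate 3, and Gfap (1426508_at) read 10.23 against 8.93 and 9.04. Without WT replicate 2 the USP18ko differences of Stat2 were 0.35 (1421911_at) and 0.58 (1450403_at), that of Socs1 0.48, and those of Socs3 0.35 (1416576_at), 0.91 (1455899_x_at) and 0.58 (1456212_x_at). Kcne2, a potassium channel subunit gene of the choroid plexus, rose by 1.15 from USP18ko to the double knockout (limma adjusted p = 0.0108). This no longer passed without USP18ko replicate 2 or 3, or double knockout replicate 1 or 3 (1.09, 1.12, 1.14 and 1.12).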

How the data were processed

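Total RNA of 12 whole-brain samples was amplified, labelled with biotin and hybridised to 1-colour arrays, per the labels' protocols. The authors deposited log2 signals, 1 per probe set and array. The R package affy is named in the submitters' processing notes, without a version, and no source read here states the background correction, normalization or probe summary. Base 2 was inferred from the values, 2.36 to 13.81. No detection calls were used, so a low signal may lie near background.

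The table held 22690 probe sets. The 64 controls were left out and the other 22626 were fitted as they stand, without a filter on low values. The platform annotation, which can be old, gave 20380 of them 1 gene and 691 several; the 1555 it does not list stay unnamed.

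Groups came from the labelled genotype, which was the only term of 1 limma fit of all arrays (limma 3.58.1, R 4.3.3; 8 residual and 3.79 prior degrees of freedom), with 6 contrasts. Tests were two-sided, with Benjamini-Hochberg adjustment over all 22626 probe sets and calls at an adjusted p under 0.05. With 3 arrays a group, an exact permutation test could not go below 0.1, and limma's calls borrow the spread of other probe sets. The fit was tested on simulated data with independent normal noise and the same spread in all groups. These data held no outlying array such as IFNARko replicate 1.

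The members and gene lists were chosen with earlier results of these data known. Named are all member probe sets, the targeted genes, Irf9, array checks and up to 5 called probe sets of each list; lists not named by gene are given as counts. Alternatives were a gene's brightest or averaged probe sets, a filter on dim probe sets, further normalization, another variance prior, a replicate block, the compared groups alone and each array left out. Added after seeing the data were gene-by-gene array weights and leaving out IFNARko replicate 1 with USP18ko replicate 2.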

Additional observations from a re-analysis of the deposited data

How the results depend on the processing

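Of 1785 recomputed values over 90 member differences, 1759 stayed on their side of the threshold, 21 newly passed, 5 no longer passed and 0 turned their sign while past it. Only 1 of the 90 had passed in the main setting, so few values could be lost. All 5 losses were of this call, Stat2 1421911_at in the double knockout against USP18ko, which held in 14 of 19 settings. The count of called members in the double knockout against USP18ko, 1 in the main setting, was 0 to 2 with each array left out in turn, and 1 without USP18ko replicate 3, though that was Socs3 1456212_x_at instead of Stat2 1421911_at. It was 0 with only probe sets above the 40th percentile of mean signal, which leaves out every Stat2, Socs1 and Socs3 probe set. The count was 0 with the brightest probe set of a gene, which leaves out Stat2 1421911_at, and 0 with the averaged ones. With only these groups it was 2 (Stat2 1421911_at and Socs3 1455899_x_at at -1.05). Without IFNARko replicate 1 and USP18ko replicate 2 together it was 3, and 1 member passed in USP18ko against WT, Socs3 1455899_x_at (0.56, limma adjusted p = 0.0199).

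Planned array weights could not be fitted, since limma's estimate stopped before its tolerance. Gene-by-gene weights, which ran from 0.081 for IFNARko replicate 1 to 4.91 for WT replicate 3, called 4 members in USP18ko against WT (Stat2 1421911_at at 0.51, Stat3 1426587_a_at at 0.68, Socs1 at 0.56 and Socs3 1455899_x_at at 0.81), 2 in IFNARko against WT, 3 in the double knockout against WT, 6 in the double knockout against USP18ko and 1 in the interaction. WT replicates 1 and 2 had weights of 0.256 and 0.458, so the weighted WT values rested mostly on replicate 3. The cause of the added calls was not tested.

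Over all probe sets the main counts were 221 (USP18ko against WT), 4 (IFNARko against WT), 0 (double knockout against WT), 270 (against USP18ko), 0 (against IFNARko) and 159 (interaction). In the same order they were 523, 2884, 2306, 598, 241 and 357 with gene-by-gene weights. The filter on dim probe sets gave 63, 2, 75 and 47 for the comparisons with calls, and brightest probe sets gave 143, 1 and 105 for USP18ko and IFNARko against WT and the interaction, averaged ones 105 for the last. With each array left out they ranged over 174 to 275, 0 to 13, 0 to 3, 194 to 353, 0 to 2 and 106 to 165. With only the compared groups 441 were called for the double knockout against USP18ko, 2 for IFNARko against WT, 2 for the double knockout against WT and 3 against IFNARko. Without IFNARko replicate 1 and USP18ko replicate 2 the last 3 were 14, 7 and 1. Quantile normalization gave 2 for IFNARko against WT, averaged probe sets 1 there, and brightest or averaged ones 2 for the double knockout against WT.

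Replicate numbers were shared between groups, but only 6 of 18 same-number pairs of arrays had correlated deviations above 0.1, and 7 of 12 arrays correlated best with their own number, so the numbers were not taken as pairs. With the replicate number as a block, 0, 0, 0, 1, 0 and 0 members and 205, 1, 0, 255, 1 and 135 probe sets were called. Among the named genes the block ended only the calls of Itgam (0.80 and -0.72), Ifnar1 in IFNARko against WT (-1.40) and the interaction of Aif1 (-2.17).

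With 3 arrays a group, precision is limited, and low signals could not be set against background.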
